A study of Arabidopsis thaliana with 4 samples.

Results

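The suberin synthesis genes are 10 Arabidopsis thaliana loci of 37686 genes in the table of transcript levels. No cut on values picked these loci, but they were chosen by identifier with earlier results of these data known. They are the acyltransferase genes GPAT5 (AT3G11430) and GPAT7 (AT5G06090), the hydroxylase genes CYP86A1 (AT5G58860) and CYP86B1 (AT5G23190), the reductase genes FAR1 (AT5G22500), FAR4 (AT3G44540) and FAR5 (AT3G44550), the feruloyl transferase gene ASFT (AT5G41040), the elongase gene KCS2 (AT1G04220) and the transporter gene ABCG20 (AT3G53510). All 10 pair with their symbols or synonyms in the reference annotation, where ASFT is listed as RWP1. Another Arabidopsis locus also carries the symbol FAR1 and is not meant here.

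Suberin is a water-repellent polyester laid down in the walls of root endodermis, periderm, seed coats and healed wounds. Fatty acids are lengthened, hydroxylated at the far end or reduced to alcohols, joined to glycerol and to ferulate, and carried out of the cell to be built into the wall. In Arabidopsis roots the enzymes of these steps are under the control of MYB and NAC transcription factors.

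Both groups were leaf explants of the wild-type accession Col-0, a standard laboratory strain, cut with part of the petiole from 12-day-old seedlings. In the 2-day group (2 libraries) the explants had spent 2 days in the dark at 22 °C on B5, a culture medium, with sucrose. In the time 0 group (2 libraries) they were sampled before culture. In both, RNA came from the tissue around the wound, which holds many cell types, so a lower level can mean fewer cells of a type or less RNA per cell, and these cannot be told apart. Time since cutting, darkness, medium and age change together between the groups. The labels do not say whether a group's libraries are from separate plants, so each p-value covers the spread among these libraries alone, and that spread may be technical.

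Levels are TPM, transcripts per 1000000 of a library, corrected for transcript length, so levels of different genes can be compared. The sequencing depth behind them is unknown. Differences are 2 days minus time 0 of log2(TPM + 1), where changes at low levels come out too small, with limma's p-values adjusted over all 19078 genes whose mean over the 4 libraries was at least 1 TPM.

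After 2 days of culture 3 of the 10 suberin synthesis genes were higher (KCS2, ASFT and FAR1) and 1 was lower (ABCG20). The other 6 stayed below 1 TPM in every library and were not tested. Neither were the 49.4% of all genes whose mean was below 1 TPM. KCS2 stood at 63.04 and 78.82 TPM at 2 days, against 0.99 and 0.71 TPM at time 0. Among all tested genes 39.2% were higher and 29.5% lower, so changed genes were common, and a count of 4 genes says little beside that. Rises made up 57.0% of all calls, or 47.0% once the libraries had been quantile normalized. KCS2 passed the limit of 1 TPM only because of its 2-day level and could be called only as higher, so it adds nothing to the count. FAR1, ASFT and ABCG20 were above the limit in both groups. The median log2 difference of the 4 tested members was 1.88, against 0.09 for all genes tested. With no limit on low values it was 0.13 over the 9 members that could be fitted, against 0.05 for all genes.

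**Figure D1:**
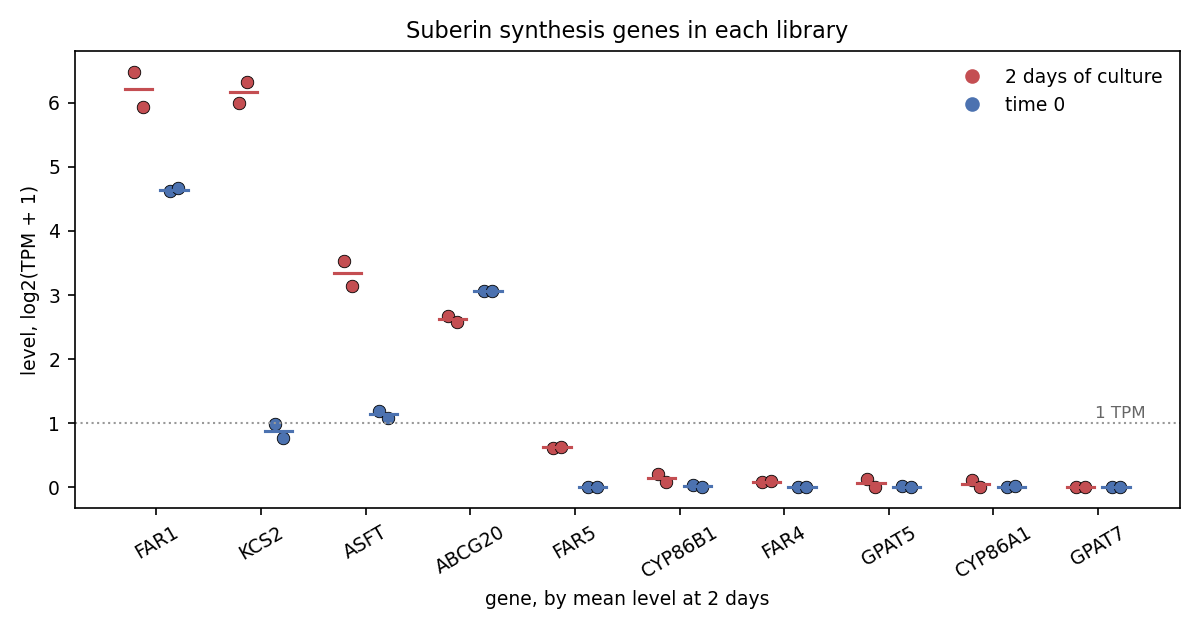
Level of each suberin synthesis gene in each library, on the log2(TPM + 1) scale, with 2 days at the left and time 0 at the right of each pair; points are libraries and short lines are means of 2. FAR1 and KCS2 lead at 2 days with means of 74.3 and 70.9 TPM, and 6 genes lie under the dotted line of 1 TPM in all 4 libraries.

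KCS2 encodes a ketoacyl-CoA synthase, the enzyme that sets the length of very long acyl chains, and acts in root suberin together with its close relative KCS20. Its levels of 63.04 and 78.82 TPM at 2 days did not overlap the 0.99 and 0.71 TPM at time 0. The ratio between single libraries of the groups ran from 63.7 to 111.0, and the log2 difference was 5.28 ± 0.14 (SE, n = 2 libraries per group, limma adjusted p = 1.14e-05, higher in 2 of 2 libraries). Of the 19078 genes tested, 79 (0.414%) rose by at least as much on this scale. KCS2 overlaps the noncoding gene AT1G04247 on the opposite strand over 58.4% of the 50-base windows of its transcript. That noncoding gene stood at 3.58 and 3.91 TPM at 2 days and at 0.22 and 0.07 TPM at time 0, a lower level than KCS2 in every library. If strand was not used in counting, reads of the pair cannot be told apart.

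FAR1, FAR4 and FAR5 encode fatty acyl reductases, which make the primary alcohols of suberin. FAR1 was the most abundant member at time 0 and stood at 88.54 and 60.05 TPM at 2 days, against 23.50 and 24.41 TPM at time 0. Both 2-day libraries lay above both time 0 libraries (log2 difference 1.57 ± 0.18, SE, limma adjusted p = 0.000996), a rise reached by 9.3% of all tested genes, and the 2-day libraries differed from each other 1.47-fold. FAR5 was listed at 0.54 and 0.55 TPM at 2 days and at 0 in both time 0 libraries. FAR4, its close neighbour on the same chromosome, was listed at 0.06 and 0.07 TPM at 2 days and at 0 in both time 0 libraries. No 50-base window of either transcript occurs on the same strand of another gene, and 5.0% of the FAR4 windows lie on the opposite strand of a noncoding gene that was listed at 0 in all 4 libraries.

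CYP86A1 and CYP86B1 encode cytochrome P450 enzymes that put a hydroxyl group on the end of the acyl chain, and GPAT5 and GPAT7 encode acyltransferases that join acyl chains to glycerol. CYP86A1 was listed at 0.08 and 0 TPM at 2 days and at 0 and 0.02 TPM at time 0. CYP86B1 was listed at 0.16 and 0.06 TPM at 2 days and at 0.03 and 0 TPM at time 0. GPAT5 was listed at 0.10 and 0 TPM at 2 days and at 0.02 and 0 TPM at time 0. GPAT7 was listed at 0 in all 4 libraries. Of the 4 genes the groups overlapped in CYP86A1, GPAT5 and GPAT7, and no library of either group exceeded 0.16 TPM for any of them. Their transcripts share no 50-base window with another gene on either strand. When no limit on low values was set, 9 members could be fitted, and the differences of CYP86B1 (limma adjusted p = 0.172), GPAT5 (limma adjusted p = 0.517), CYP86A1 (limma adjusted p = 0.578) and FAR4 (limma adjusted p = 0.127) did not pass. FAR5 did pass in that fit (log2 difference 0.63 ± 0.05, SE, limma adjusted p = 0.00135), where 31.4% of 25387 genes were higher. Because FAR5 was listed at 0 in both time 0 libraries, it entered that fit only through its 2-day level and could be called only as higher.

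ASFT encodes the acyltransferase that attaches ferulate, a phenolic acid, to the aliphatic chains of suberin. It stood at 10.57 and 7.86 TPM at 2 days, against 1.29 and 1.12 TPM at time 0. The groups did not overlap, with ratios between single libraries of 6.09 to 9.44 and a log2 difference of 2.2 ± 0.16 (SE, limma adjusted p = 0.000193). A rise of at least this size was found in 5.05% of all tested genes.

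ABCG20 encodes an ABC transporter that acts with ABCG2 and ABCG6 in the suberin of roots and seed coats. It was the member that fell, to 5.37 and 5.0 TPM at 2 days, against 7.36 and 7.34 TPM at time 0. The log2 difference was -0.43 ± 0.09 (SE, limma adjusted p = 0.00864), and both 2-day libraries lay below both time 0 libraries. The call was lost without time 0 replicate 1 (limma adjusted p = 0.0719) and without time 0 replicate 2 (limma adjusted p = 0.0701), over a range of 0.00181 to 0.0719 across the alternatives.

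**Figure D2:**
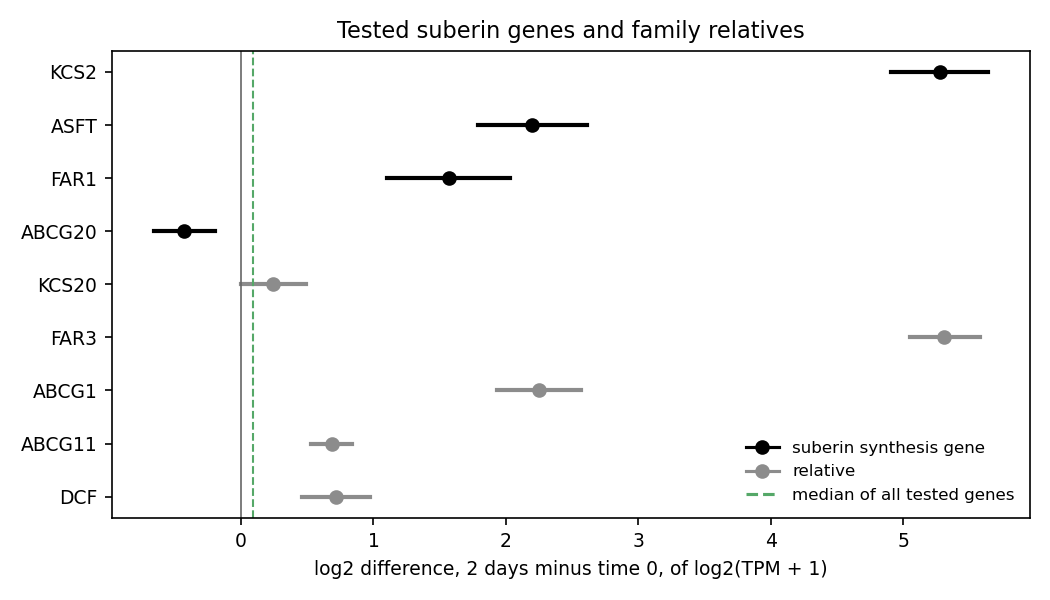
Log2 difference, 2 days minus time 0, of the 4 tested suberin synthesis genes (black) and of 5 relatives picked after their values were seen (grey), with 95% intervals from limma; the dashed line marks the median of all tested genes. KCS2 lies at 5.28 and ABCG20 at -0.43, while KCS20, the close relative of KCS2, lies at 0.24 with an interval that reaches 0.

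At 2 days the order of levels was FAR1, KCS2, ASFT, ABCG20 and FAR5, and then the 5 genes at or under 0.16 TPM. FAR1 and KCS2 overlapped between libraries at 2 days, as did the neighbours among the lowest 5, while KCS2, ASFT, ABCG20 and FAR5 were each separated from the next. At time 0 the order was FAR1, ABCG20, ASFT and KCS2, all separated from each other, with the remaining members at or under 0.03 TPM. In all, 6 members had 2-day libraries above both time 0 libraries and 1 had them below, where 29.1% and 22.3% of all genes in the table did so. FAR4 and FAR5, listed at 0 in both time 0 libraries, could only lie above. Of all 37686 genes, 12299 were listed at 0 in all 4 libraries and could not separate, which lowers both shares. The summed level of the 10 members was 168.5 and 152.4 TPM at 2 days, against 33.2 and 33.6 TPM at time 0.

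The members were set beside their gene families, whose other genes act mainly in cutin, cuticular wax, pollen wall or seed lipids. Among 20 KCS genes, KCS2 ranked 7th by mean level at 2 days and 15th at time 0. It made up 3.43% and 4.58% of their summed TPM at 2 days, against 0.0764% and 0.0548% at time 0. KCS20 stood at 155.60 and 130.32 TPM at 2 days and at 123.37 and 117.03 TPM at time 0 (log2 difference 0.24, 95% interval -0.00 to 0.49, limma adjusted p = 0.0709). Of the 14 tested KCS genes other than KCS2, 4 were higher and 4 lower, where 39.2% and 29.5% of all tested genes were. KCS3 and KCS12 rose (log2 differences 2.36 and 1.61), and KCS8 and KCS16 fell (log2 differences -2.66 and -2.06). Quantile normalization gave 7 lower KCS genes, and so did rescaling after organelle genes and the 100 most abundant genes were taken out.

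In the FAR family only FAR1 and FAR3, of 8 genes, exceeded 1 TPM in any library. FAR3, known as CER4 for its part in wax alcohols, stood at 45.74 and 47.14 TPM at 2 days, against 0.12 and 0.27 TPM at time 0. FAR1, FAR4 and FAR5 together held 66.1% and 56.3% of the family's TPM at 2 days and 99.2% and 98.3% at time 0, nearly all of it from FAR1. FAR8, which lies close to FAR5, had 0 TPM listed in both 2-day libraries and 0.06 and 0.02 TPM at time 0.

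Among 8 GPAT genes, GPAT5 and GPAT7 were the lowest in both groups by mean level. The cutin gene GPAT4 stood at 80.26 and 85.75 TPM at 2 days, against 48.80 and 43.06 TPM at time 0 (log2 difference 0.84, limma adjusted p = 0.000479). GPAT8, which acts with GPAT4, fell to 47.89 and 44.63 TPM at 2 days, against 76.57 and 75.48 TPM at time 0. Among 6 CYP86 genes, CYP86A1 and CYP86B1 were likewise the lowest in both groups. CYP86A4, a hydroxylase of cutin, rose to 18.98 and 16.68 TPM at 2 days, against 3.26 and 2.94 TPM at time 0. The groups of CYP86A7 were also apart, at 3.92 and 3.80 TPM at 2 days and 0.82 and 0.51 TPM at time 0. Differences between a member's change and that of a relative were not tested.

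**Figure D3:**
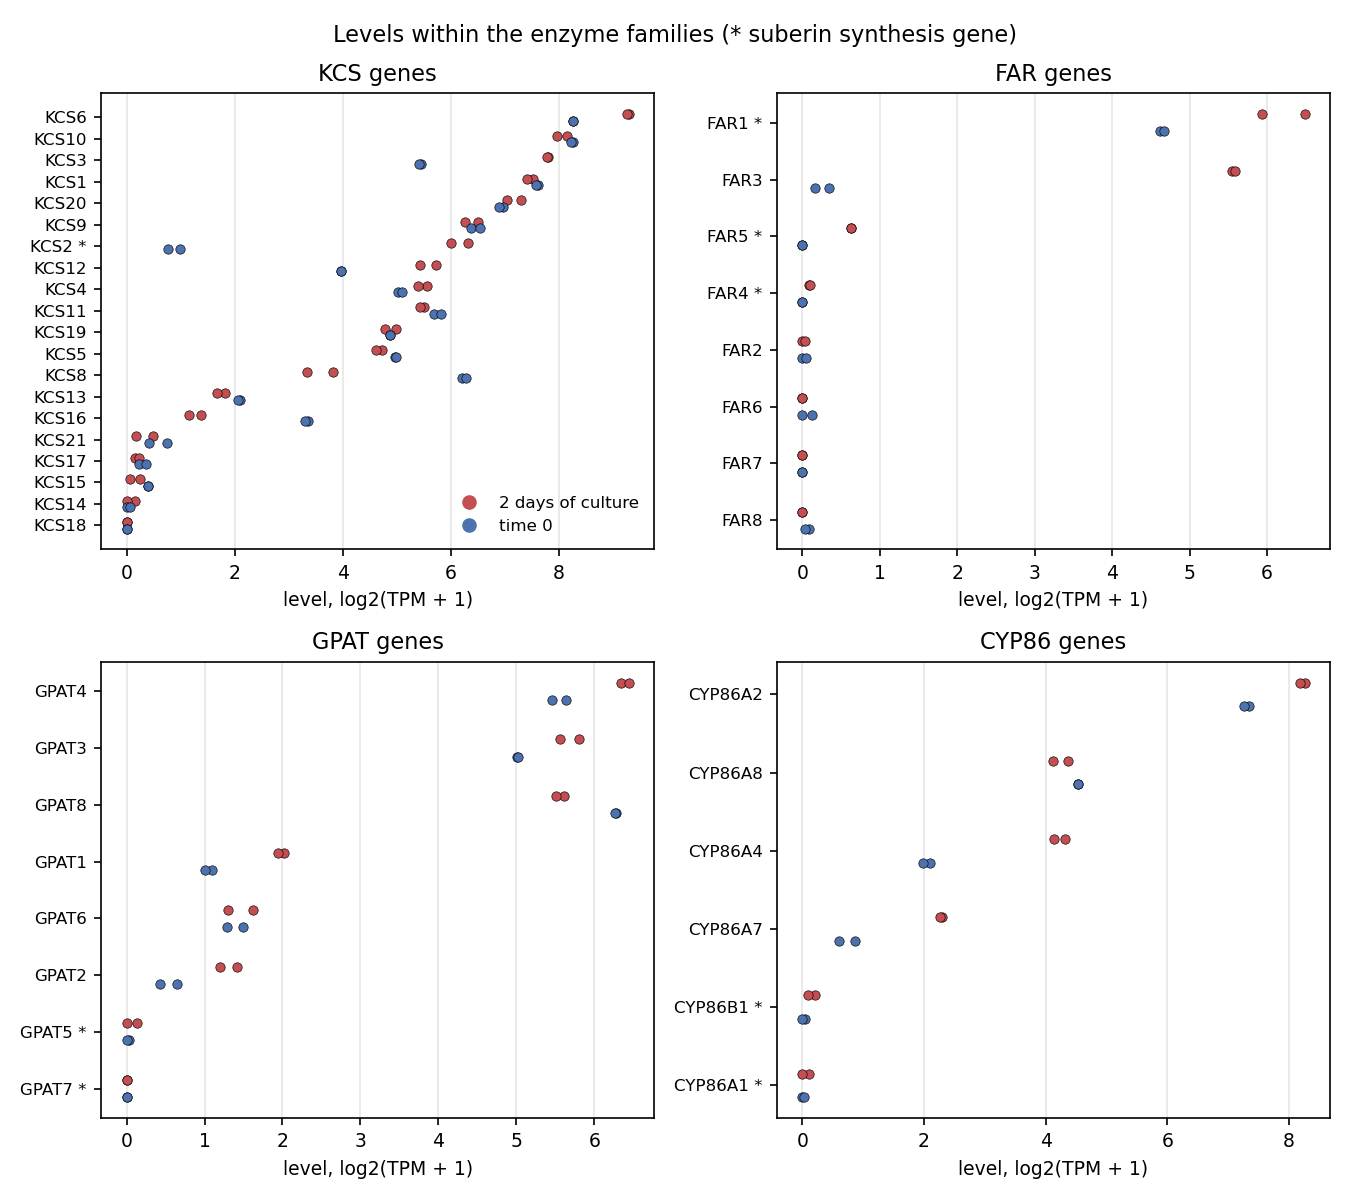
Level of each gene of 4 enzyme families on the log2(TPM + 1) scale, with 1 point per library, 2 days above time 0 in each row, and genes sorted by mean level at 2 days. Stars mark suberin synthesis genes: GPAT5, GPAT7, CYP86A1 and CYP86B1 sit at the bottom of their families, FAR1 at the top of its own, and KCS2 ranks 7th of 20 KCS genes at 2 days and 15th at time 0.

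Other enzymes and exporters linked to suberin were higher in 4 of 5 tested genes, lower in 0 and not past the threshold in 1, and another 3 were below the limit. LTPG5 passed the limit only through its 2-day level and could be called only as higher, so it adds nothing to that count. Over all tested genes 39.2% were higher and 29.5% lower. LTPG5, a lipid transfer protein anchored to the membrane, stood at 24.46 and 11.10 TPM at 2 days, against 0.30 and 0.18 TPM at time 0. ABCG1, a transporter of pollen wall and root suberin, stood at 13.69 and 11.83 TPM at 2 days, against 2.08 and 1.69 TPM at time 0 (log2 difference 2.25, limma adjusted p = 7.66e-05). REF1, a dehydrogenase that makes ferulate, stood at 337.63 and 295.68 TPM at 2 days, against 144.14 and 150.03 TPM at time 0. The partners of ABCG20 were low: ABCG6 did not exceed 0.09 TPM in any library. ABCG2 was listed at 0 and 1.52 TPM at 2 days and at 0 in both time 0 libraries, with 95.2% of its windows on the opposite strand of another gene. FACT, which attaches caffeate to fatty alcohols, was listed at 0.02 and 0 TPM at 2 days and at 0 in both time 0 libraries.

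The phenylpropanoid route, which supplies ferulate among other products such as lignin, had 10 of 10 tested genes higher, with a median log2 difference of 2.67. Beside this count and those of the next 2 lists, 39.2% of all tested genes were higher and 29.5% lower. The ligase gene 4CL2 stood at 115.55 and 129.50 TPM at 2 days, against 5.17 and 5.39 TPM at time 0. The methyltransferase gene COMT1 stood at 439.49 and 438.80 TPM at 2 days, against 28.16 and 28.50 TPM at time 0. PAL1, the entry enzyme, had a log2 difference of 3.05 (limma adjusted p = 7.74e-06). Other subunits of the fatty acid elongase, the acyl activating enzymes and the gene ACC1 made up the next list. It had 4 of 6 tested genes higher and 0 lower, with a median of 0.56. KCR1 and CER10, both reductases of the elongase, rose with log2 differences of 0.92 and 0.70, and LACS2, an acyl-CoA synthetase, with one of 0.83. Of 13 tested cutin synthesis genes 8 were higher and 3 lower, with a median of 0.51. CYP86A7 is among the 8 and passed the limit only through its 2-day level. DCR, an acyltransferase of cutin, fell to 1.18 and 0.88 TPM at 2 days, against 5.49 and 5.17 TPM at time 0.

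**Figure D4:**
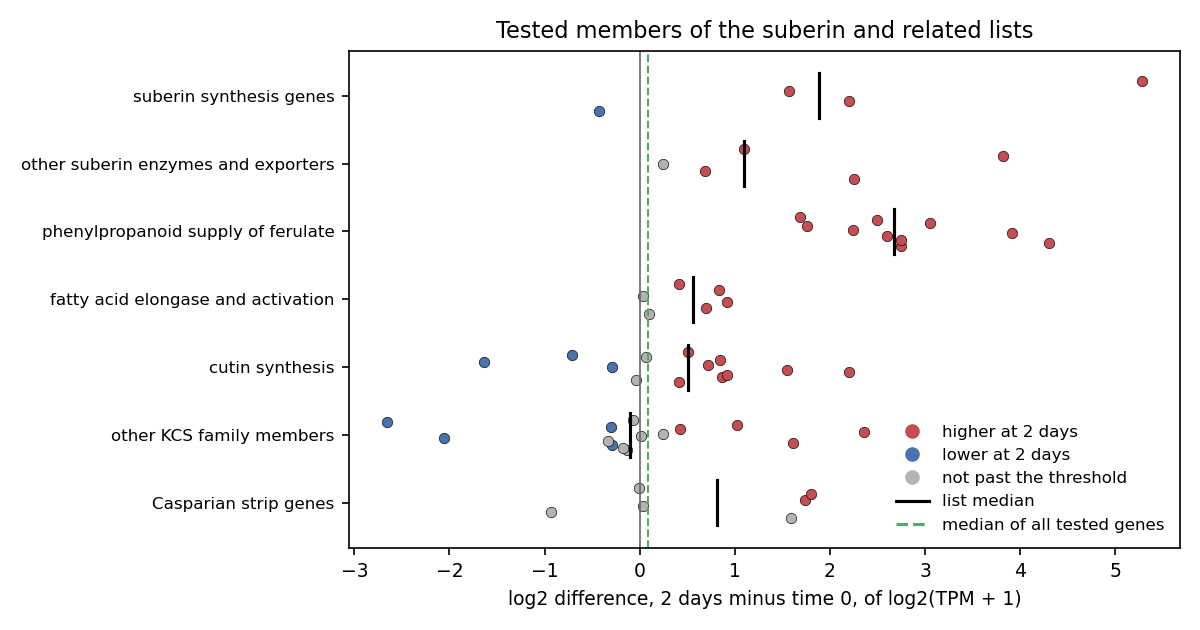
Log2 difference, 2 days minus time 0, of each tested gene in 7 lists, coloured by call; black bars are list medians and the dashed line is the median of all tested genes, 0.09. All 10 phenylpropanoid genes lie at 1.68 or above, and the KCS genes other than KCS2 lie on both sides of 0.

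Transcription factors linked to suberin were rare: 10 of 10 had a mean under 1 TPM and none was tested with that limit. MYB53 stood at 0.93 and 1.35 TPM at 2 days, against 0.29 and 0.35 TPM at time 0. MYB41 was listed at 0.52 and 0.55 TPM at 2 days, and MYB93 at 0.59 and 0.43 TPM, and both were listed at 0 in both time 0 libraries. With no limit on low values 5 of the 10 were higher and 0 lower, in a fit where 31.4% of all genes were higher. MYB41, MYB93 and NAC058, all listed at 0 in both time 0 libraries, could be called only as higher and add nothing to that count. The 5 were MYB41 (limma adjusted p = 0.00147), MYB53 (limma adjusted p = 0.0132), MYB93 (limma adjusted p = 0.00472), NAC046 (limma adjusted p = 0.0304) and NAC058 (limma adjusted p = 0.00546). MYB9 and MYB107, known from seed coats, stayed at or under 0.08 TPM, and 53.3% of the MYB9 windows lie on the opposite strand of another gene.

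Casparian strip genes, which mark the root endodermis, where suberin is also laid down, differed between the 2-day libraries. CASP1, a scaffold protein of the strip, was at 7.03 and 0.13 TPM at 2 days and listed at 0 in both time 0 libraries, and its difference did not pass (limma adjusted p = 0.173). The summed level of the 9 listed strip and endodermis genes was 48.7 and 27.5 TPM at 2 days, against 28.6 and 28.8 TPM at time 0. SCR and ESB1 made up most of that sum in every library. SCR stood at 19.87 and 17.78 TPM at 2 days, against 18.41 and 19.38 TPM at time 0. ESB1 stood at 8.60 and 6.30 TPM at 2 days, against 7.43 and 7.02 TPM at time 0. CASP5 was listed at 0 in all 4 libraries. Of 6 tested genes 2 were higher and 0 lower: the factor MYB36 stood at 3.05 and 1.77 TPM at 2 days and was listed at 0 at time 0 (limma adjusted p = 0.00161), and the peroxidase PER64 stood at 5.67 and 1.10 TPM at 2 days and 0.09 and 0.06 TPM at time 0 (limma adjusted p = 0.0324, and between 0.00156 and 0.113 under other settings). Both genes passed the limit of 1 TPM only through their 2-day levels and could be called only as higher, so their count is a description. Among all tested genes 39.2% were higher and 29.5% lower. CASP2 stood at 1.82 and 0.11 TPM at 2 days, against 2.58 and 2.19 TPM at time 0 (limma adjusted p = 0.118). ESB1 and SCR had log2 differences of 0.03 and -0.01, and 83.9% of the ESB1 windows lie on the opposite strand of another gene. SGN3, left out because its symbol and locus do not pair, was lower (log2 difference -0.58, limma adjusted p = 0.0284). It passed the limit only through its time 0 level. Without 2-day replicate 1 MYB36 and PER64 fell below the limit of 1 TPM and were not tested, so that fit says nothing about them. FAR1, ASFT and LTPG5 were also higher in 2-day replicate 1 than in 2-day replicate 2, whereas KCS2 was lower in it. Without 2-day replicate 1 the differences remained 5.44 for KCS2, 2.01 for ASFT and 1.29 for FAR1, with limma adjusted p of 0.00114, 0.00238 and 0.00171. That fit takes the spread from the time 0 pair and assumes that the lone 2-day library varies alike.

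**Figure D5:**
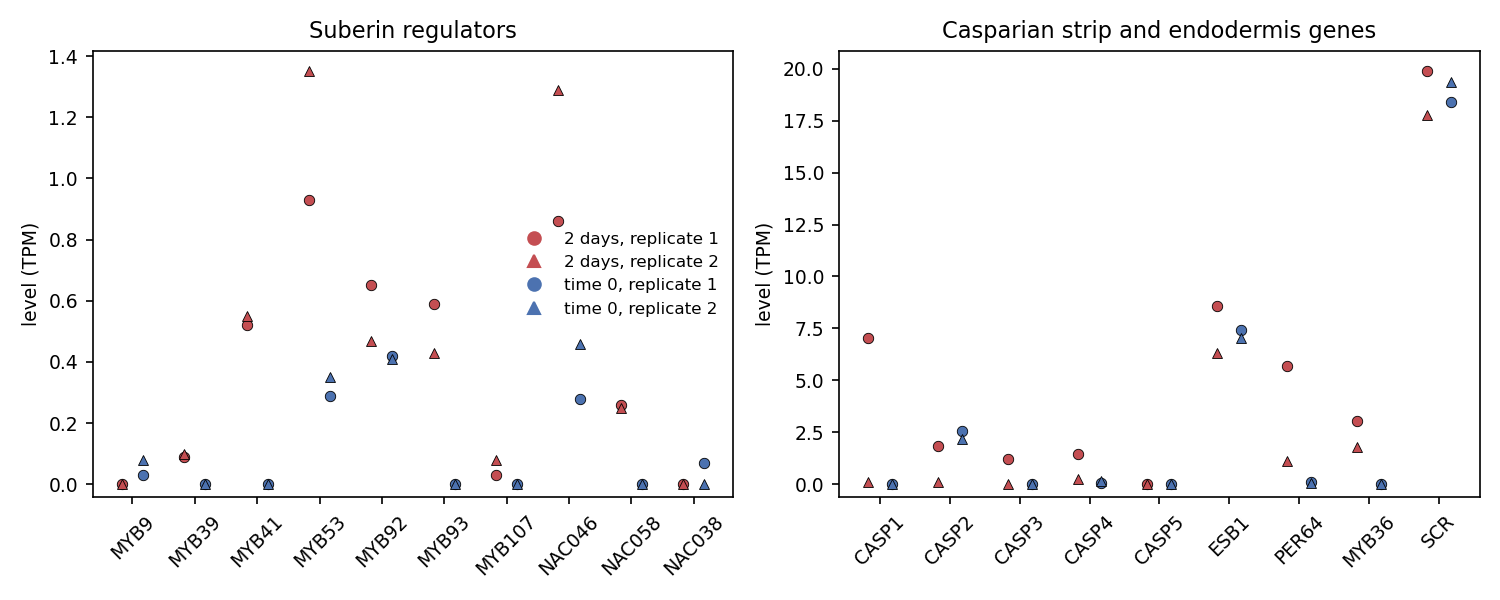
Level in TPM of suberin regulators (left panel) and Casparian strip and endodermis genes (right panel) in each library, with 2 days left of time 0 for each gene; circles are replicate 1 and triangles replicate 2. MYB53 and NAC046 exceed 1 TPM in a single 2-day library, and CASP1 and PER64 are far higher in 2-day replicate 1 than in replicate 2.

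The labelled tissue was checked with markers. Mesophyll markers summed to 10669.1 and 8352.8 TPM at 2 days, against 46965.8 and 44837.0 TPM at time 0, guard cell markers to 27.2 and 23.9 TPM, against 47.9 and 51.8 TPM, vascular markers to 232.0 and 223.0 TPM, against 156.2 and 150.6 TPM, and epidermis markers to 935.5 and 881.9 TPM, against 885.9 and 867.2 TPM. No marker of these 4 lists was at 0. The epidermis markers moved apart within their sum: PDF1, an epidermal protein, stood at 2.63 and 1.28 TPM at 2 days, against 201.75 and 193.96 TPM at time 0, and ATML1, an epidermal transcription factor, at 25.17 and 19.89 TPM, against 73.30 and 69.29 TPM. CUT1, at 624.01 and 611.30 TPM at 2 days and 304.82 and 305.02 TPM at time 0, and FDH are other names of KCS6 and KCS10, which are also among the KCS genes above. Of 5 vascular markers 2 were higher, both sugar exporters of the SWEET family, and 0 lower, of 4 mesophyll markers 1 was higher and 3 lower, of 4 guard cell markers 0 were higher and 3 lower, and of 4 epidermis markers 1 was higher and 2 lower. Among all tested genes 39.2% were higher and 29.5% lower. The part of such marker shifts in the changes of the suberin genes was not tested.

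The 3 tested genes with a symbol whose profile over the 4 libraries lay nearest to that of KCS2, by Euclidean distance between centred log2(TPM + 1) values, were GBSS1, a starch synthase (distance 0.11), FRD3, a citrate transporter (0.20), and MAKR4, a membrane-associated regulator (0.20). GBSS1 stood at 55.45 and 66.05 TPM at 2 days, against 0.80 and 0.60 TPM at time 0. These distances are over 4 libraries in 2 groups.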

How the data were processed

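RNA was sequenced from 4 libraries, 2 per group, grouped by sample title. The authors deposited 1 table of TPM, rounded to 2 decimals. The submitters' processing notes name RSEM 1.3.2, STAR 2.7.2b, Trim Galore 0.5.0 and the build TAIR10. The strand setting is not given in the sources used here, nor is the annotation release. TPM keeps no depth, so no counting interval or count test was used. For genes averaging 1 TPM or more, limma 3.58.1 (R 4.3.3) was fitted to log2(TPM + 1) with an empirical Bayes trend and Benjamini-Hochberg adjustment, and called at an adjusted p below 0.05. An exact permutation test of 2 against 2 libraries cannot go below p = 0.333 (two-sided) and was not used. The fit was tested on simulated data.

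The members and lists were chosen with earlier results of these data known. List genes whose symbol and locus do not pair in the TAIR10.1 annotation were left out (8, with 110 kept). Among those left out SGN3 was lower, LTPG20 and CUS2 were higher, and the rest were below the limit of 1 TPM. LTPG20 passed that limit only through its 2-day level and could be called only as higher. The TAIR10.1 annotation served for names, neighbours and shared 50-base windows, computed with Python 3.11.15, and no coordinates are given. Named genes are all members, the 3 called genes with the largest change in each other list and 1 in the other direction, close family copies, and the 3 nearest profiles. Relatives and untested genes named beside them were chosen after their values were seen.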

Additional observations from a re-analysis of the deposited data

How the results depend on the processing

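There were 12 alternatives: other pseudocounts, other filters, both other scalings, no mean-variance trend, a replicate block and each library left out. With all 4 libraries kept, ASFT and FAR1 passed limma's threshold as higher in every one. KCS2 did so too, but where a filter was set it entered only through its 2-day level and could be called only as higher. With no filter the limma adjusted p of KCS2 was 0.000263. From a mean of 5 TPM, ASFT too entered only through its 2-day level. The 4 fits with a library left out hold 1 library in that group, which is assumed to vary like the pair that gives the spread. Across all 12 alternatives the log2 differences ran from 3.69 to 6.23 for KCS2, from 1.19 to 2.82 for ASFT and from 1.29 to 1.84 for FAR1. The fall of ABCG20 kept its direction throughout (-0.63 to -0.28), and the number of lower members ran from 0 to 1 when single libraries were left out. The median of the tested members was 2.21 with a pseudocount of 0.1 and 1.31 with a pseudocount of 5. It was 0.13 with no filter, which adds 5 genes near 0 TPM. With no filter 5 regulators were higher, because none was tested with it, and MYB41, MYB93 and NAC058 could be called only as higher. Higher Casparian strip genes numbered 1 with a pseudocount of 5, with no filter and after quantile normalization, 0 from a mean of 5 TPM, and 0 to 3 when single libraries were left out. Lower ones numbered 1 after quantile normalization and with the replicate block, and 0 to 1 with libraries left out. Lower KCS genes other than KCS2 numbered 7 after quantile normalization and after rescaling, and 2 to 7 with libraries left out. Where no construction shows it, the cause was not tested. Quantile normalization moved the median of all genes by -0.15 and rescaling by -0.11. Libraries with equal numbers are not known to be paired, and their deviations had a correlation of -0.0674 over genes. The replicate block gave 7101 higher and 5283 lower genes, against 7485 and 5636 without it. Because the depth is unknown, no precision can be given for values near 0 TPM.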
